A study of Mus musculus with 4 samples.

Results

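The alpha and beta tubulin isotypes are the genes whose proteins pair into the subunits of microtubules. The 10 isotype genes Tuba1a, Tuba1b, Tuba1c, Tuba4a, Tubb2a, Tubb2b, Tubb3, Tubb4b, Tubb5 and Tubb6 were taken by symbol, and all 10 had a row among the 18383 genes of the deposited count table. RNA of renal primary tubular epithelial cells, prepared from the kidney cortex of C57BL/6 mice aged 8 weeks, was sequenced in 2 libraries from mice labelled MYCfl/fl KspCre/+ (called KM here) and 2 from mice labelled SETD2fl/fl MYCfl/fl KspCre/+ (KMS). Both genotypes therefore carried the MYC allele and the Cre transgene, and no mouse without them was analysed here. The series title writes these genotypes as MYC+ with and without SETD2, and the labels do not say how the MYC allele acts once Cre has cut it. In KspCre mice the promoter of kidney-specific cadherin (Cdh16) drives Cre recombinase in renal tubular epithelium, and Cdh16 itself had at least 6839 counts in each library. The comparison asks which transcripts differ when SETD2 is targeted beside MYC. Total counts were 18639040 and 14955148 in the KM libraries and 9780050 and 8886496 in the KMS libraries, of which 4047 to 11486 fell on the 10 tubulin genes.

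Alpha and beta tubulin form a dimer that adds to microtubule ends. The isotypes share nearly all of the folded body of the protein and differ mainly in the acidic tail at the C terminus, which carries most of the modifications known as the tubulin code. Lysine 40 of alpha tubulin lies inside the microtubule, where ATAT1 acetylates it, and SETD2, better known for trimethylating lysine 36 of histone H3, also methylates this lysine on mitotic microtubules. Cells hold the amount of tubulin mRNA in check by autoregulation, in which TTC5 recognises the first residues of a tubulin chain as it leaves the ribosome and starts decay of its mRNA. In the mouse, Tuba1a, Tubb2a, Tubb2b and Tubb3 are known mainly from neurons, Tuba1b, Tuba1c, Tubb5 and Tubb6 from many tissues and dividing cells, and Tubb4b from many tissues and from cilia.

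The codon of the lysine that SETD2 methylates is shown for the 4 alpha isotypes, since this is where the targeted enzyme meets the family. These are reference sequences of the coding strand (GENCODE M21, GRCm38), codons 36 to 45, with codon 40 in capitals.
Tuba1a (chr15:98951560-98951589, minus strand): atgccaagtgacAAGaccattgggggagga
Tuba1b (chr15:98933064-98933093, minus strand): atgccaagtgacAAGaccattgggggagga
Tuba1c (chr15:99034196-99034225, plus strand): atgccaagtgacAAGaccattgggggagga
Tuba4a (chr1:75217303-75217332, minus strand): atgcccagcgatAAGaccattggtggaggg
All 4 genes carry the lysine codon AAG at this place, in an exon of the coding region. Tuba1a, Tuba1b and Tuba1c are identical over these 30 bases, and Tuba4a is not.

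The last 10 codons before the stop codon are shown for 5 of the isotypes because the encoded tails are where the isotypes differ most. The last sense codon is in capitals.
Tuba1b (chr15:98931585-98931614, minus strand): ggcgagggggaggaagaaggagaggagTAC
Tuba1c (chr15:99037977-99038006, plus strand): gctgaaggagacgatgagggtgaggaaTAT
Tuba4a (chr1:75215625-75215654, minus strand): tcctatgaggacgaggatgagggagaaGAG
Tubb4b (chr2:25222311-25222340, minus strand): tttgaggaggaggctgaggaggaggtgGCT
Tubb5 (chr17:35834985-35835014, minus strand): gatttcggagaggaggcagaagaggagGCC
Tuba1b and Tuba1c end in a codon for tyrosine (TAC or TAT), the residue that vasohibins remove from alpha tubulin and TTL adds back. Tuba4a ends in GAG, a codon for glutamate, so its chain is made without that tyrosine.

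The first 8 codons are shown for the most abundant isotypes, with the 4 codons that encode the residues read in autoregulation in capitals. In the alpha genes an intron splits this stretch.
Tuba1b (chr15:98933175-98934335, minus strand, spliced): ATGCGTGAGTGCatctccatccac
Tuba4a (chr1:75217414-75219195, minus strand, spliced): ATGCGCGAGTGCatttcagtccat
Tubb4b (chr2:25224567-25224590, minus strand): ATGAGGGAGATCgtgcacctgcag
Tubb5 (chr17:35838030-35838053, minus strand): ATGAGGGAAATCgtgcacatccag

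The coding sequences bear on how far the genes can be counted apart. Tuba1a and Tuba1b were 98.3% identical over their aligned coding bases, Tuba1b and Tuba1c 98.4% and Tuba1a and Tuba1c 97.6%. Tuba4a was 85.3% to 85.6% identical to these. Tubb2a and Tubb2b were 96.5% identical, and every other pair among Tubb2a, Tubb2b, Tubb3, Tubb4b and Tubb5 between 82.3% and 84.8%. No source used here gives how the authors treated reads that match several genes, so the split of counts within the Tuba1 group and between Tubb2a and Tubb2b is uncertain, while their sums are less so. Exons of Tuba4a overlap those of the kinase gene Stk16 on the opposite strand over 1379 bases (GENCODE M21), and those of Tubb4b overlap Fam166a over 121 bases. On the same strand, exons of Gm49450 overlap those of Tuba1a over 473 bases and those of Tuba1b over 426 bases, which counting by strand cannot resolve, and Gm41396 lies antisense to Tuba1b over 87 bases. The library kit keeps the strand, but whether counting used it is not stated, so reads of Tuba4a and Stk16 may not be told apart.

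The libraries of each genotype differed in sex by their counts, and every library held markers of several cell types. Replicate 1 of each genotype had 12967 (KM) and 4363 (KMS) counts of Xist, the RNA of the inactive X chromosome, and replicate 2 had 10 and 1, with the opposite pattern for Y-linked genes (1 and 0 counts in replicate 1, 3410 and 1471 in replicate 2). Ratios of KMS to KM are therefore also given between the Xist-rich libraries and between the Y-positive libraries, which share a sex by these genes and are not said to be otherwise paired. Markers of the proximal tubule were present in every library, with a summed level of 8910 to 35500 CPM (counts per 1e+06, with TMM-adjusted library totals). Markers of other cells were present as well, with 1060 to 2500 CPM for podocytes, 667 to 1110 CPM for endothelium and 144 to 589 CPM for leukocytes. In RNA of such mixed cells, fewer cells of a type and less RNA per cell cannot be told apart.

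Setd2, the targeted gene, stood at 54.2 and 57.9 CPM in KM, against 58.3 and 49.1 in KMS, and the groups overlapped. Its log2 fold change, given throughout as KMS against KM, was -0.06 ± 0.17 (SE, n = 2 each, edgeR adjusted p = 0.847). Which exons are floxed is not in the labels, so a count over the whole gene does not check the genotype. The SETD2 deletion is therefore known here only from the labels.

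By value, Tuba4a and Tubb4b made up larger shares of the alpha and beta isotypes in KMS, and Tuba1b and Tubb5 smaller ones. The Tuba1b share rests on the uncertain split within the Tuba1 group, and Tuba4a counts may include reads of Stk16. The level of Tubb4b itself was not resolved (log2 fold change 0.13, groups overlapping), and the sum over alpha isotypes was about level. No isotype passed the test over all genes. With edgeR's quasi-likelihood test, 0 of 10 had an adjusted p under 0.05, where 5 of 15002 genes passed (0.0333%). At an unadjusted p under 0.05 there were 3, Tuba4a higher and Tuba1b and Tubb5 lower in KMS, beside 26.3% of all genes. DESeq2's Wald test called 2, Tuba4a higher and Tubb5 lower, where it called 11.8% of all genes, and limma-voom called 0, beside 0.00667% of all genes. In the authors' deposited table, where 2.22% of genes had an adjusted p under 0.05, none of the 10 did and the lowest was 0.221, for Tuba4a. KM and KMS libraries did not overlap for 6 of the 10 genes, which is close to the 60.4% of all genes tested whose groups did not overlap. Of the 10, 5 were lower and 1 higher in KMS without overlap, beside 31.3% and 29.1% of all genes. The median log2 fold change of the 10 was -0.49, beside -0.01 over all genes, and 7 of 10 were negative, beside 50.6% of all genes.

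**Figure D1:**
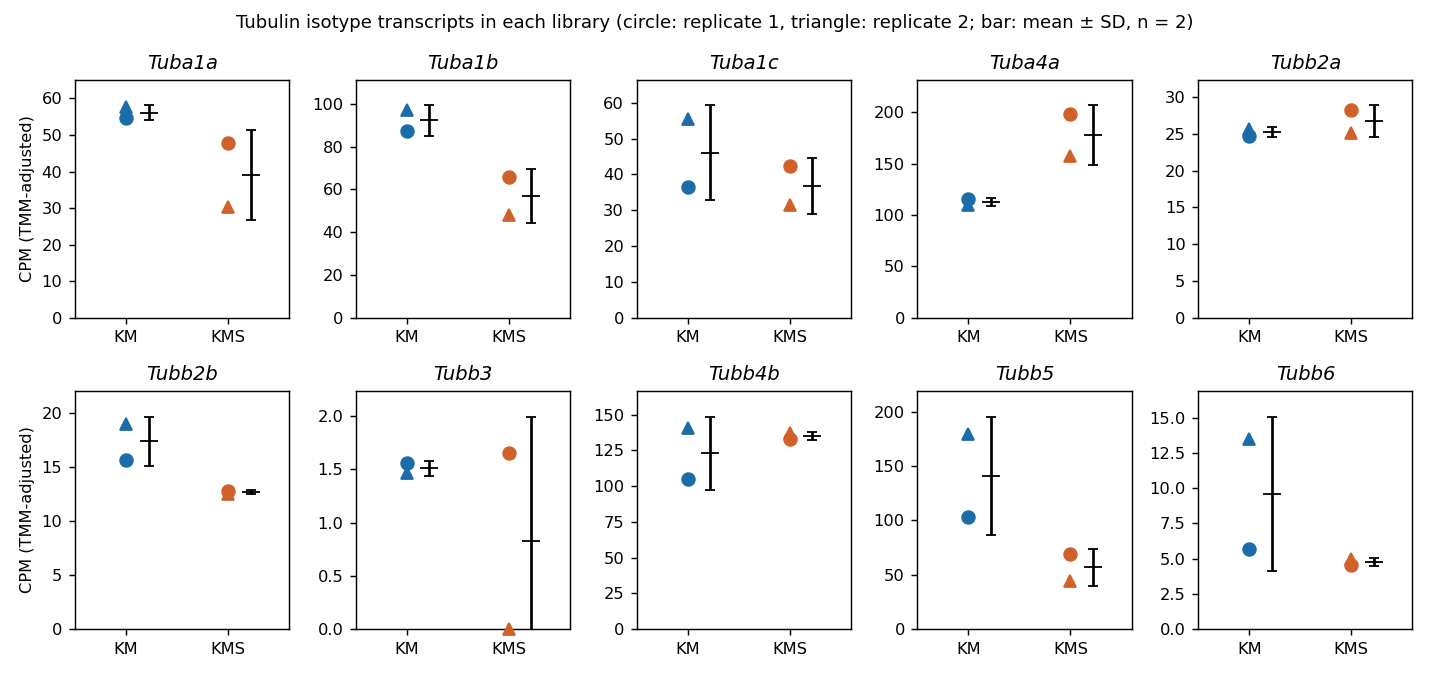
TMM-adjusted CPM (vertical axis, from 0) of each of the 10 tubulin isotypes in KM (blue) and KMS (orange), with replicate 1 as circles, replicate 2 as triangles and the mean ± SD of 2 libraries beside them; a bar that would pass below 0 is cut at 0. Tuba4a is higher in both KMS libraries, at 199 and 158 CPM against 116 and 110, and Tubb5 is lower in both, at 68.9 and 44.3 CPM against 103 and 180.

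Among the alpha isotypes, Tuba4a (chr1:75214228-75219865, minus strand) had the highest level in CPM. It stood at 116 and 110 CPM in KM, against 199 and 158 in KMS, from 1300 to 2153 counts per library. Both KMS libraries lay above both KM libraries. The log2 fold change was 0.66 ± 0.20 (SE, n = 2 each, 95% interval 0.16 to 1.15, edgeR adjusted p = 0.123), and the ratio was positive in both the Xist-rich (0.77) and the Y-positive (0.51) libraries. It passed only with DESeq2 (log2 fold change 0.66, adjusted p = 0.04), and over all 14 alternatives its adjusted p ran from 0.04 to 0.404. Stk16, which shares exon positions with it, stood at 54.1 and 57.3 CPM in KM, against 72.9 and 81.7 in KMS, so the overlapping gene was also higher by value. Its part in the Tuba4a counts was not tested.

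Tuba1b (chr15:98931425-98934565, minus strand), the alpha isotype common to many tissues, stood at 87.1 and 97.2 CPM in KM, against 65.6 and 47.8 in KMS. Both KMS libraries were below both KM libraries. The log2 fold change was -0.70 ± 0.21 (SE, n = 2 each, 95% interval -1.22 to -0.18, edgeR adjusted p = 0.117), with -0.41 between Xist-rich and -1.02 between Y-positive libraries. Under the 14 alternatives it stayed negative, and its lowest adjusted p was 0.0648, with DESeq2.

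Tuba1a (chr15:98949837-98953703, minus strand), the alpha isotype of growing neurons, stood at 54.7 and 57.6 CPM in KM, against 47.7 and 30.2 in KMS. Its groups did not overlap either, with a log2 fold change of -0.52 ± 0.25 (SE, n = 2 each, edgeR adjusted p = 0.235). It was -0.22 without KMS replicate 2 and -0.86 without KMS replicate 1, so its size rested on which KMS library was kept. Tuba1c (chr15:99029891-99038110, plus strand) stood at 36.5 and 55.4 CPM in KM, against 42.4 and 31.3 in KMS, and the groups overlapped. Its log2 fold change of -0.32 ± 0.27 (SE, edgeR adjusted p = 0.485) joined a ratio of 0.21 between Xist-rich libraries and one of -0.81 between Y-positive libraries, so the direction came from the Y-positive ones. Without KM replicate 2 it was 0.02. Because reads may be shared within the group, the sum of Tuba1a, Tuba1b and Tuba1c depends less on that split. It was 178 and 210 CPM in KM, against 156 and 109 in KMS, with both KMS libraries lower.

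Among the beta isotypes, Tubb5 (chr17:35833921-35838306, minus strand), which is found in many tissues, stood at 103 and 180 CPM in KM, against 68.9 and 44.3 in KMS. Both KMS libraries were below both KM libraries, and the KM libraries were themselves far apart. The log2 fold change of -1.32 ± 0.34 (SE, n = 2 each, 95% interval -2.16 to -0.48) was the lowest of the 10 and had an edgeR adjusted p of 0.101. The ratio was -0.57 between Xist-rich and -2.01 between Y-positive libraries. DESeq2 called it (log2 fold change -1.31, adjusted p = 0.00598), where it called 11.8% of all genes, and limma-voom did not (adjusted p = 0.126). Without KM replicate 2, in which it was highest, the log2 fold change was -0.85, and without KM replicate 1 it was -1.66. Each of these fits leaves a single KM library, so only the size is given.

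Tubb4b (chr2:25222160-25224702, minus strand) stood at 105 and 141 CPM in KM, against 133 and 137 in KMS. The KMS libraries fell within the range of KM. Its log2 fold change was 0.13 ± 0.21 (SE, n = 2 each, 95% interval -0.39 to 0.66, edgeR adjusted p = 0.724), so neither direction was resolved. The rows Tubb4b-ps1 and Tubb4b-ps2, described in the table as its pseudogenes and named here after their values were seen, had at most 20 and 7 counts in a library, beside 1130 to 2314 for Tubb4b.

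Tubb2a (chr13:34074274-34078007, minus strand) was level, at 24.7 and 25.6 CPM in KM, against 28.2 and 25.1 in KMS. Its log2 fold change was 0.08 ± 0.19 (SE, n = 2 each, 95% interval -0.37 to 0.54, edgeR adjusted p = 0.806). Tubb2b (chr13:34126748-34130466, minus strand), its close copy, stood at 15.7 and 19.0 CPM in KM, against 12.8 and 12.5 in KMS. Both KMS libraries were below KM, with a log2 fold change of -0.46 ± 0.22 (SE, n = 2 each, edgeR adjusted p = 0.252). Their sum was 40.4 and 44.6 CPM in KM, against 41.0 and 37.6 in KMS, and these groups overlapped.

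Tubb6, on chromosome 18, stood at 5.71 and 13.5 CPM in KM, against 4.55 and 4.98 in KMS. Both KMS libraries were below KM, by little against KM replicate 1 and by much against KM replicate 2. The log2 fold change was -1.01 ± 0.46 (SE, n = 2 each, edgeR adjusted p = 0.225). It was -1.49 without KM replicate 1 and -0.26 without KM replicate 2, so its size rested on which KM library was kept.

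Tubb3 (chr8:123411424-123422015, plus strand), the beta isotype used as a marker of neurons, was the least abundant member. Its KM libraries held 29 and 24 counts and its KMS libraries 16 and 0, or 1.56, 1.47, 1.65 and 0 CPM. The 0 in KMS replicate 2 allows up to 0.364 CPM, taking 3 counts as the limit, for counting error only. The first KMS library was as high as KM and the second had no count, and the log2 fold change of -0.81 ± 1.04 (SE, n = 2 each, edgeR adjusted p = 0.653) turned to 0.14 without KMS replicate 2. Neuron markers were also near the limit of detection. Of 10 listed genes 5 had a row, none passed the filter on low counts, and their sum was 1.55 to 2.70 CPM per library, with Nefm at 0 in both KMS libraries.

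**Figure D2:**
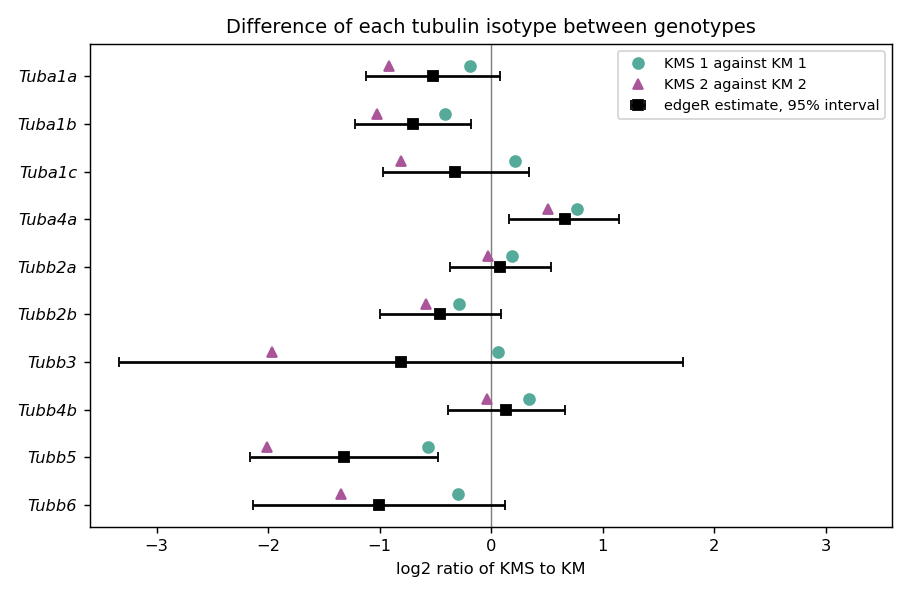
Log2 ratio of KMS to KM (horizontal axis) for each of the 10 tubulin isotypes. Black squares are edgeR estimates with 95% intervals, not adjusted for the number of genes, and coloured points are the ratios between the Xist-rich replicates 1 (circles) and the Y-positive replicates 2 (triangles). Intervals of Tuba4a (0.16 to 1.15), Tuba1b (-1.22 to -0.18) and Tubb5 (-2.16 to -0.48) exclude 0, and the triangle lies below the circle in value for all 10 genes.

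The mixture of isotypes was next compared. Shares and count ratios within a library do not depend on the scaling between libraries, while levels in CPM do. CPM was divided by the length of the principal transcript in kilobases (GENCODE M21) so that genes could be set beside each other. On this scale the order of the alpha isotypes in KM was Tuba1b at 52.9 ± 4.10, Tuba4a at 39.9 ± 1.39, Tuba1a at 31.1 ± 1.14 and Tuba1c at 23.2 ± 6.72 CPM per kb (SD, n = 2). In KMS it was Tuba4a at 62.8 ± 10.2, Tuba1b at 32.5 ± 7.22, Tuba1a at 21.6 ± 6.87 and Tuba1c at 18.6 ± 3.94 CPM per kb. The libraries of neighbours in this order did not overlap, except for Tuba1a and Tuba1c of KMS, whose values ran from 16.8 to 26.5 and from 15.8 to 21.4 CPM per kb.

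Tuba4a made up 29.3% and 25.2% of alpha-tubulin CPM per kb in the KM libraries and 45.0% and 48.1% in the KMS libraries. Tuba1b made up 35.8% and 36.1% in the KM libraries and 24.2% and 23.7% in the KMS libraries. The share of Tuba1a was 21.2% ± 0.744 in KM and 15.8% ± 1.78 in KMS, and that of Tuba1c 15.6% ± 3.44 and 13.7% ± 0.0497 (SD, n = 2). For Tuba4a, Tuba1b and Tuba1a the 2 libraries of a genotype were close together and apart from the other genotype, while Tuba1c overlapped. As raw counts, Tuba4a had 1.33 and 1.14 counts for each count of Tuba1b in KM and 3.03 and 3.30 in KMS, a log2 difference of 1.36 that was similar in the Xist-rich (1.19) and the Y-positive (1.54) libraries. The exact two-sided permutation test over the 4 libraries gave p = 0.333, the smallest it can give with 2 against 2, so it cannot pass 0.05. The Tuba1b values rest on the uncertain split of reads within the Tuba1 group, and those of Tuba4a may include reads of Stk16. The share of Tuba4a depends less on that split. Tuba1a, Tuba1b and Tuba1c summed to 178 and 210 CPM in KM, against 156 and 109 in KMS.

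Of the beta isotypes, Tubb4b led in both genotypes, at 77.0 ± 16.1 CPM per kb in KM and 84.6 ± 1.79 in KMS (SD, n = 2). Tubb5 followed at 53.3 ± 20.6 in KM and 21.4 ± 6.57 in KMS, then Tubb2a at 15.6 ± 0.420 and 16.6 ± 1.36, Tubb2b at 7.96 ± 1.05 and 5.80 ± 0.102, Tubb6 at 5.46 ± 3.13 and 2.71 ± 0.172, and Tubb3 at 0.811 ± 0.037 and 0.443 ± 0.626 CPM per kb. In KM the libraries of Tubb4b and Tubb5 overlapped, as did those of Tubb2b and Tubb6, and in KMS those of Tubb5 and Tubb2a did.

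Tubb4b made up 50.1% and 46.7% of beta-tubulin CPM per kb in KM and 61.2% and 67.7% in KMS. Tubb5 made up 29.5% and 35.8% in the KM libraries and 19.1% and 13.2% in the KMS libraries. Both shares kept the genotypes apart, although the level of Tubb4b itself did not differ beyond its spread. The smaller shares of Tubb2a (higher in KMS), Tubb2b and Tubb6 (both lower) kept them apart as well, and that of Tubb3 overlapped. Such separation is common here, since by level the groups of 60.4% of all genes did not overlap. In raw counts, the share of Tubb5 among beta isotypes was 40.2% (exact 95% binomial interval 38.8% to 41.6%) and 47.2% (46.0% to 48.5%) in KM and 27.7% (25.9% to 29.5%) and 19.8% (18% to 21.7%) in KMS. These intervals cover counting error only and are narrower than the distance between replicates, so the replicates and not the depth limit the comparison. Tubb4b had 1.02 and 0.786 counts for each count of Tubb5 in KM and 1.93 and 3.10 in KMS, a log2 difference of 1.45 with 0.92 between Xist-rich and 1.98 between Y-positive libraries (exact two-sided permutation p = 0.333, the smallest possible).

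**Figure D3:**
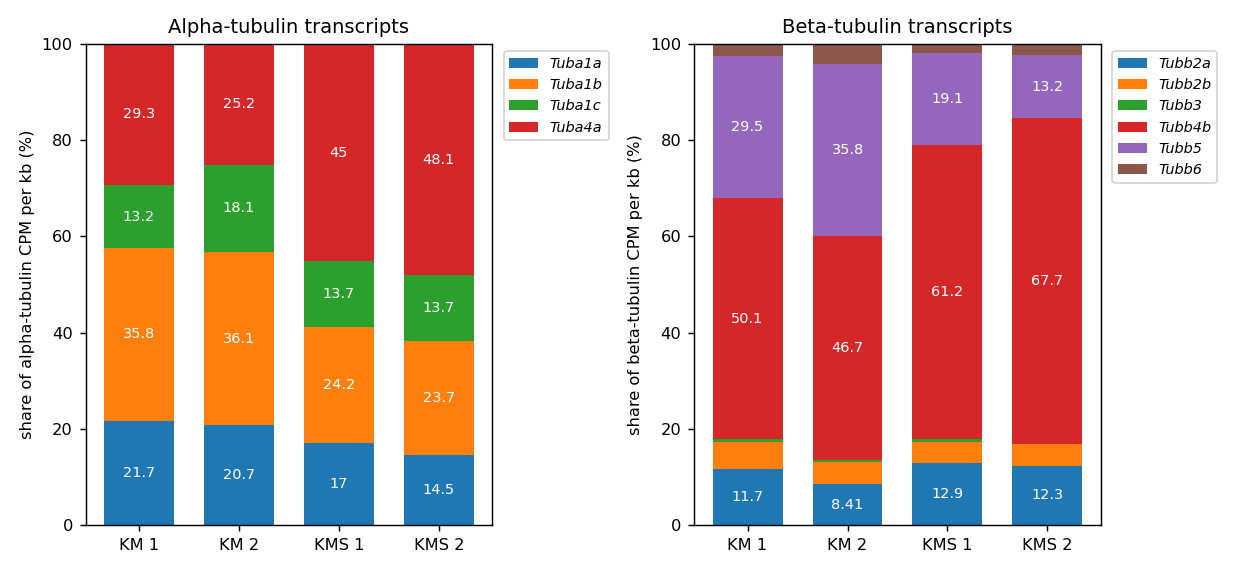
Share (vertical axis, percent) of each isotype in the alpha-tubulin CPM per kb (left) and beta-tubulin CPM per kb (right) of each library, stacked to 100. Tuba4a takes 25.2% to 29.3% of the alpha bar in KM and 45.0% to 48.1% in KMS, and Tubb4b takes 46.7% to 50.1% of the beta bar in KM and 61.2% to 67.7% in KMS.

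The isotypes were also summed. The 4 alpha isotypes summed to 294 and 321 CPM in KM, against 355 and 267 in KMS, so the groups overlapped. Their log2 ratio was 0.00, from 0.27 between Xist-rich and -0.26 between Y-positive libraries (exact two-sided permutation p = 1, smallest possible 0.333). The 6 beta isotypes summed to 255 and 381 CPM in KM, against 249 and 224 in KMS. These did not overlap, but KMS replicate 1 and KM replicate 1 were close, and the log2 ratio of -0.40 came from -0.03 between Xist-rich and -0.77 between Y-positive libraries (exact two-sided permutation p = 0.333). Per kilobase, alpha stood to beta as 1.07 and 0.816 in the KM libraries and 1.14 and 0.912 in the KMS libraries, and these ratios overlapped.

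The genes whose pattern over the 4 libraries was most like that of all 10 isotypes summed were Chd1l, a chromatin remodeller, Rexo4, Neil1, a DNA glycosylase of base excision repair, U2af2, a subunit of the splicing factor U2AF, and Acly, the ATP citrate lyase. Likeness was the root mean square difference of centred log2 CPM over the 4 libraries, among 9270 genes of at least 10 CPM on average, and was 0.00491 to 0.0194. With only 4 libraries this is a description of these libraries.

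Promoters are shown for Tubb4b and Tubb5, chosen because the ratio of their counts differed by value between the genotypes. RefSeq (GRCm38.p6) gave a promoter for 8 of the 10 members, and each stretch is the 250 bases before the start that RefSeq gives. GENCODE M21 places some starts elsewhere, so that 250 of these bases lie inside its gene for Tuba4a, 202 for Tuba1a, 175 for Tuba1b, 129 for Tubb3, 5 for Tubb5 and 0 for the others. Capitals mark the CCAAT box (letters CCAAT, or ATTGG on the other strand), which nuclear factor Y binds, and the E-box (letters CACGTG, the same on both strands), which MYC with MAX and other factors bind.
Tubb4b (chr2:25224703-25224952, minus strand): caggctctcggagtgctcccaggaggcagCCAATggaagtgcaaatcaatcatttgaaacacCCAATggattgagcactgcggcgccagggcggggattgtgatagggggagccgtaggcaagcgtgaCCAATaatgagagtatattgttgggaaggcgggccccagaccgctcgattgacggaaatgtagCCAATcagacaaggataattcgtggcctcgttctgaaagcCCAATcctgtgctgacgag
Tubb5 (chr17:35838302-35838551, minus strand): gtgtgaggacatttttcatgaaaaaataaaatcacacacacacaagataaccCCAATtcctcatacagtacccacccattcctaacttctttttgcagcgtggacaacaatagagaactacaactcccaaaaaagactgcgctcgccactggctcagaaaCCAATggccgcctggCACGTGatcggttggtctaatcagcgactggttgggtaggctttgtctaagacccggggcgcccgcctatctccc
Tubb4b held 5 CCAAT boxes and no E-box, and Tubb5 held 2 CCAAT boxes and 1 E-box, which begins 75 bases before the start. None of these matches overlapped another. Tuba1a, Tuba1c and Tubb3 held 1 CCAAT box each, and Tuba1b, Tuba4a and Tubb2a none. Of 32851 promoters of the same length, 33.8% held a CCAAT box and 6.02% an E-box. A match is a description of the sequence and not a bound site. Myc itself stood at 5.28 and 6.96 CPM in KM, against 6.10 and 2.18 in KMS (log2 fold change -0.55 ± 0.51 SE, n = 2 each, edgeR adjusted p = 0.526). Whether these counts include transcripts of the MYC allele named in the labels was not tested.

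The other tubulin genes were rare, apart from Tubg1. Of 10 listed, 7 had a row and 6 were tested, and edgeR called 0 (0 at an unadjusted p under 0.05, and 0 with DESeq2 or limma-voom). Gamma tubulin Tubg1, which nucleates microtubules, was the most abundant, with 16.2 ± 0.400 CPM (SD, n = 2) for KM and 20.1 ± 3.01 CPM for KMS (edgeR adjusted p = 0.384). Epsilon tubulin Tube1 and delta tubulin Tubd1, both of centrioles, had 2.52 ± 0.586 and 1.36 ± 0.556 CPM, and 3.82 ± 0.377 and 4.77 ± 0.462 CPM. The alpha isotype Tuba8 had 2.12 ± 0.713 and 1.39 ± 0.0790 CPM.

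The folding list holds the cofactors, the CCT chaperonin and prefoldin that assemble the tubulin dimer, with Ttc5 and Scaper of autoregulation. Here and in the lists that follow, counts stand against 26.3% of all genes at an unadjusted p under 0.05 in edgeR and 11.8% called by DESeq2. Of 22 tested, edgeR called 0, 3 were higher and 0 lower at an unadjusted p under 0.05, and DESeq2 and limma-voom called 0. The median log2 fold change was -0.07, beside -0.01 over all genes. The 4 of smallest p were all higher by value in KMS. The alpha-binding cofactor gene Tbcb averaged 28.3 ± 1.56 CPM (SD, n = 2) for KM and 43.2 ± 3.08 CPM for KMS (edgeR adjusted p = 0.108), the prefoldin genes Pfdn1 and Pfdn5 had 45.6 ± 2.51 and 74.1 ± 16.8 CPM, and 87.8 ± 11.2 and 121 ± 13.2 CPM, and Arl2, a small GTPase that acts with the cofactors, had 18.3 ± 3.69 and 28.4 ± 2.91 CPM. Ttc5, named for its role in autoregulation and outside the rule for named genes, had 12.3 ± 2.18 and 11.9 ± 0.960 CPM.

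Of 17 tested genes for enzymes that modify tubulin, edgeR, DESeq2 and limma-voom called 0, with 1 higher and 1 lower at an unadjusted p under 0.05 in edgeR and a median log2 fold change of 0.11. Sirt2, a deacetylase of lysine 40, averaged 22.3 ± 1.15 CPM (SD, n = 2) for KM and 36.2 ± 3.86 CPM for KMS with a log2 fold change of 0.70 ± 0.19 (SE, edgeR, adjusted p = 0.103). Ttll7, which adds glutamates to beta tubulin, had 5.54 ± 0.241 and 2.13 ± 0.784 CPM, a log2 fold change of -1.37 ± 0.40 (SE, edgeR adjusted p = 0.111). Ttll3, a glycylase, had 17.5 ± 0.159 and 23.2 ± 2.32 CPM, and Agtpbp1, a deglutamylase, 38.5 ± 0.153 and 31.2 ± 3.25 CPM. Atat1, the acetyltransferase of lysine 40, and Hdac6, the other deacetylase, were chosen after their values were seen. They had 21.5 ± 4.33 and 21.9 ± 0.432 CPM, and 67.8 ± 4.52 and 66.4 ± 14.7 CPM.

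Of 22 tested genes for microtubule-binding proteins, edgeR and limma-voom called 0 and DESeq2 called 1, with 5 lower and 0 higher at an unadjusted p under 0.05 in edgeR and a median log2 fold change of -0.31. Both shares are below those over all genes. Map1b, a protein of growing neurites, averaged 20.8 ± 12.5 CPM (SD, n = 2) for KM and 3.46 ± 0.0816 CPM for KMS with a log2 fold change of -2.58 ± 0.48 (SE, edgeR, adjusted p = 0.0825), and was called with DESeq2 (adjusted p = 5.98e-05). Stmn1, which sequesters tubulin dimers, had 17.8 ± 3.80 and 10.5 ± 0.709 CPM, Map9 14.7 ± 2.27 and 7.92 ± 0.819 CPM and Map1s 19.2 ± 2.67 and 12.4 ± 0.302 CPM. Of 23 genes of severing and nucleation, edgeR and limma-voom called 0 and DESeq2 called 1, with 1 higher and 2 lower at an unadjusted p under 0.05 and a median of -0.22. The severing-related ATPase gene Fignl1, which is known for DNA repair, had 3.34 ± 2.44 and 0.398 ± 0.124 CPM and was the gene called with DESeq2 (adjusted p = 0.0228). Mzt1 of the gamma-tubulin complex had 42.3 ± 0.200 and 30.8 ± 1.0 CPM and the augmin subunit gene Haus3 9.22 ± 3.20 and 5.11 ± 0.50 CPM.

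Several marker lists also differed by value between the genotypes. The 14 proximal tubule markers summed to 12300 and 8910 CPM in KM, against 21800 and 35500 in KMS, and all 14 were positive by value. Much of the last sum was Kap, a gene that androgen drives in the mouse kidney, with 1480 and 827 CPM in KM, against 56.6 and 14930 in KMS, and without it the sums were 10900 and 8080 CPM in KM, against 21800 and 20600 in KMS. The 20 genes of cell division, of which 18 were tested and all 18 were negative, summed to 75.4 and 191 CPM in KM, against 36.9 and 24.9 in KMS. Their proliferation marker Mki67 averaged 28.6 ± 19.4 CPM (SD, n = 2) for KM and 3.08 ± 0.755 CPM for KMS (edgeR adjusted p = 0.0757). The centromere proteins Cenpe and Cenpf went from 3.46 ± 1.92 to 0.389 ± 0.0348 CPM and from 7.22 ± 3.35 to 1.47 ± 0.702 CPM between KM and KMS, and Ube2c, which acts in mitotic exit, from 4.66 ± 1.79 to 0.535 ± 0.413 CPM, none of them called by edgeR. Markers of injured tubule summed to 4560 and 10200 CPM in KM, against 3650 and 1480 in KMS, with 12 of 12 negative. Urothelial markers summed to 11.8 and 86.2 CPM in KM, against 1.76 and 2.67 in KMS, with 7 of 7 tested negative and Krt5 at 0 in both KMS libraries. Leukocyte markers were negative for 8 of 8 tested, and mesenchymal and smooth muscle markers for 10 of 10, with sums of 230 and 273 CPM in KM, against 139 and 145 in KMS. EdgeR called 0 genes in each of these lists, where unadjusted p under 0.05 was reached by 10 of proximal tubule, 16 of cell division, 8 of injured tubule, 7 of urothelium, 6 of leukocyte and 5 of mesenchyme, and DESeq2 called 12, 8, 6, 6, 5 and 4, beside 26.3% and 11.8% of all genes.

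KM replicate 2 had the highest Tuba1a, Tuba1b, Tuba1c, Tubb2b, Tubb4b, Tubb5 and Tubb6. It was also highest in cell division, injured tubule, urothelial and leukocyte markers. KMS replicate 2 had the lowest Tuba1a, Tuba1b, Tuba1c, Tubb2b, Tubb3 and Tubb5. It was lowest in cell division, injured tubule and leukocyte markers. The part of these cells and states in the tubulin values was not tested. The markers of collecting duct summed to 587 and 411 CPM in KM, against 480 and 307 in KMS, those of endothelium to 1070 and 868 CPM in KM, against 1110 and 667 in KMS, and both overlapped between genotypes. The collecting duct sum joined markers that went both ways, with 5 of 10 positive and 5 negative. At an unadjusted p under 0.05 in edgeR, 3 of them were higher and 3 lower, beside 26.3% of all genes. DESeq2 called 2 of them higher and 2 lower, beside 11.8% of all genes. Podocyte markers summed to 2100 and 1060 CPM in KM, against 2500 and 2320 in KMS, and those of loop of Henle and distal tubule to 3570 and 985 CPM in KM, against 6320 and 3900 in KMS.

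**Figure D4:**
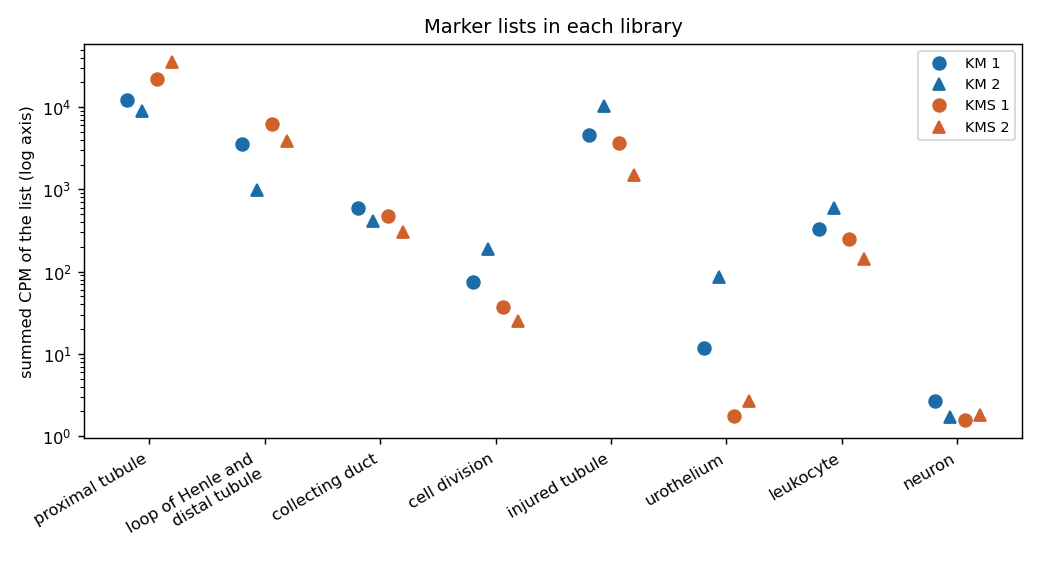
Summed TMM-adjusted CPM (vertical axis, log scale) of 7 lists of cell type or injury markers and of the cell division list in each library, KM in blue and KMS in orange, replicate 1 as circles and replicate 2 as triangles. Proximal tubule markers are higher in both KMS libraries (21800 and 35500 CPM against 12300 and 8910), and cell division genes are lower in both (36.9 and 24.9 CPM against 75.4 and 191).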

How the data were processed

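The authors deposited raw read counts per gene for 4 libraries, per the file headers, beside their fold change as a ratio and its log2 value, and their p-value and adjusted p-value from a test not given in the sources used here. Per the submitters' processing notes, the software comprised HISAT2, StringTie, MACS2 2.1.1, Trimmomatic 0.35, cutadapt 1.9.1 and FastQC and build GRCm38 (mm10), and no tool is given a role. Per the labels' protocols, poly(A) RNA was made into directional libraries. Value columns that matched no sample numbered 0.

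Counts went into edgeR 4.0.16 (R 4.3.3, TMM, quasi-likelihood F test, two-sided, genotype as the only term) after filterByExpr (minimum count 10, minimum total 15) left 15002 genes, all 10 members among them. P-values were adjusted by Benjamini-Hochberg over these, and a gene was called under 0.05. The SE came from the F statistic. Pair ratios were taken after adding 0.5 CPM. DESeq2 1.42.0 and limma 3.58.1 (voom) were alternatives. The fit was tested on simulated data. The design text mentions triplicates, and 2 libraries per genotype were analysed here. The replicates of a genotype differ in sex by their Xist and Y-linked counts and so come from different animals, and the spread behind each p-value includes that difference.

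The members, 6 pathway lists and 10 marker lists were chosen with earlier results of these data known. From each pathway list the 4 genes of smallest edgeR p with at least 1 CPM were named, and Setd2, Myc and 5 genes most like the summed members. Sequences came from GENCODE M21 and RefSeq (GRCm38.p6). No sequence of Tubb6 is shown. A gene taken by this rule and 1 sequence are not reported here.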

Additional observations from a re-analysis of the deposited data

How the results depend on the processing

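The number of genes called depended on the model far more than the isotype values did. Beside 5 genes with edgeR, 1185 had an adjusted p under 0.1, and there were 1767 with DESeq2, 1 with limma-voom, 3 with a filter of at least 1 CPM in 2 libraries, 3 with library totals alone and 2 without mitochondrially encoded genes. Leaving out single libraries gave 0 to 1786 calls. The replicate block gave 717 calls with edgeR and 888 with DESeq2, the latter chosen after seeing the data. With the block 0 isotypes passed in edgeR and 1, Tubb5, in DESeq2. The labels do not say that replicate numbers pair the samples, but by Xist and Y-linked counts the block is also a term for sex. Deviations of same-numbered libraries correlated at 0.0657 across 14997 genes, with Xist and the Y-linked genes left out. The block is given here only, and the main fit has no term for sex. Of the 10 isotypes, 2 passed with DESeq2, Tuba4a and Tubb5, beside 11.8% of all genes. The cause was not tested.

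Tuba1a, Tuba1b, Tuba4a, Tubb2b, Tubb5 and Tubb6 kept their direction under all 14 alternatives. The direction turned for Tuba1c without KM replicate 2 (0.02, down to -0.58 with other libraries left out), for Tubb2a with library totals (-0.04), for Tubb3 without KMS replicate 2 (0.14, against -7.45 without KMS replicate 1, where the group is at 0 and the fitted value is no bound) and for Tubb4b without KM replicate 1 (-0.05, up to 0.37), as log2 fold changes. Library totals shifted the median of all genes to -0.13. The alpha pool had no settled direction, from -0.17 to 0.22 with single libraries left out and -0.19 per kilobase of exon, while the beta pool stayed between -0.68 and -0.11. The KMS minus KM difference in share was 17.3 to 21.4 percentage points for Tuba4a, 12.8 to 19.3 for Tubb4b and -19.7 to -13.4 for Tubb5 with single libraries left out, and 18.3, 15.2 and -16.3 with length as the union of exons. With that length Tuba1a and Tuba4a were level in KM, at mean shares of 23.8% and 23.5%.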
